A study of Caenorhabditis elegans with 2 samples.

Results

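Divergent promoters are stretches of DNA between the 5′ ends of 2 adjacent protein-coding genes that point away from each other, so that 1 stretch lies upstream of both genes. A ChIP-seq peak counted as a divergent promoter peak when its summit lay in such a stretch on a nuclear chromosome, the 5′ ends were at most 2000 bp apart and no tRNA, snoRNA or snRNA gene lay within 500 bp of the summit. Of the 17005 nuclear peaks in the list called on both replicates together (the pooled list), 678 met this rule, which is 3.99%. They lay in 595 of the 2494 divergent gene pairs of the genome that had this spacing.

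The data come from ChIP-seq of MEL-28 in Caenorhabditis elegans, an assay that recovers the DNA attached to a protein with an antibody and sequences it. The study held 1 group of 2 biological replicates, and no mutant or treated group. The animals were of strain OP646, carrying the allele unc-119(tm4063) on chromosome III and the transgene insertion wgIs646, which expresses MEL-28 with a GFP-FLAG tag at its C terminus. They were whole young adults of both sexes, collected 64 h after synchronisation as starved L1 larvae, and the sonicated chromatin was precipitated with an antibody against GFP. The antibody reads the tagged copy of MEL-28 only. In whole animals, a peak present weakly in many cells and a peak present strongly in few cells cannot be told apart.

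MEL-28 is the worm relative of ELYS, a protein that attaches to chromatin, seeds the assembly of nuclear pores after cell division and also serves at kinetochores. Divergent promoters are common in the compact worm genome, and those of broadly used genes are typically open chromatin shared by both genes. Many worm transcripts receive a spliced leader in place of their original 5′ end, so an annotated 5′ end can lie downstream of the place where transcription starts.

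The sequences at the summits of the 7 strongest divergent promoter peaks show what the text below describes, and each runs from 100 bases before to 100 bases after the summit in the RefSeq genome sequence, build ce11 (WBcel235), written 5′ to 3′. Capitals mark every match, on either strand, to 9 short motifs and to 2 words that were noticed in these windows after they had been read. The core promoter motif TATAAA was searched first. Zinc finger factors of the Sp family read the motif CCGCCC, and the words GAGAGA and CTGCGTCT were searched with no factor in mind. Helix-loop-helix factors read CACGTG (the E-box), heat shock factor reads TTCNNGAA repeats, gut and skin factors of the GATA family read TGATAA, forkhead factors read GTAAACA and the cell cycle factor E2F reads words like GCGCGAAA. The noticed words were ATACACTC and later GCGCACTT.
K01G5.10/tasp-1 (chrIII:10759156-10759356, + strand): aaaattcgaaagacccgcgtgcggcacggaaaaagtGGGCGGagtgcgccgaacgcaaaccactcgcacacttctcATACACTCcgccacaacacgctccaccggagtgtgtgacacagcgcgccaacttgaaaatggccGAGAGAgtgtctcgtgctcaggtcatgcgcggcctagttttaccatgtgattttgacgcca
rpl-15/K11H12.8 (chrIV:654837-655037, + strand): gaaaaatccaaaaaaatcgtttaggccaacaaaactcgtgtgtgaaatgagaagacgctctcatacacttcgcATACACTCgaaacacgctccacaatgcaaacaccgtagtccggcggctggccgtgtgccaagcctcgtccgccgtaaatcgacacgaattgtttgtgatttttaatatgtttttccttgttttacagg
cct-8/Y55F3AR.2 (chrIV:1094250-1094450, + strand): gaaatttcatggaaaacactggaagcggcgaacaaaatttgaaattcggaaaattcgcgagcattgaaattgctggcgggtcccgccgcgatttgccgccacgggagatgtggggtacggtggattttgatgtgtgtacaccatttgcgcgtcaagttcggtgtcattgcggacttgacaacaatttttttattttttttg
rpl-20/Y17G9B.5 (chrIV:4750004-4750204, + strand): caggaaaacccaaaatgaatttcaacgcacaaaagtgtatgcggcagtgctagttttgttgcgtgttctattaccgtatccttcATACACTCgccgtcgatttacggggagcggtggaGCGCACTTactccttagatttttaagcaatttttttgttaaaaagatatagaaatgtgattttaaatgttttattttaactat
Y22D7AL.10/hsp-60 (chrIII:1618985-1619185, + strand): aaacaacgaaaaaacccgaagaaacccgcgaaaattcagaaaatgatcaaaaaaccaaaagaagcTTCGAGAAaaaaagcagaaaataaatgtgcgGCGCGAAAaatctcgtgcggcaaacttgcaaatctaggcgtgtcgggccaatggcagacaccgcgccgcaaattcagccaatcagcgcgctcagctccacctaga
drr-2/set-16 (chrIII:13643596-13643796, + strand): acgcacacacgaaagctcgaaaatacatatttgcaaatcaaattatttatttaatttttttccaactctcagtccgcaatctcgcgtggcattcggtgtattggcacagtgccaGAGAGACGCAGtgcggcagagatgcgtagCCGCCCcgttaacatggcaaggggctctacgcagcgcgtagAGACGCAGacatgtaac
F44E5.4/F44E5.5 (chrII:11759374-11759574, + strand): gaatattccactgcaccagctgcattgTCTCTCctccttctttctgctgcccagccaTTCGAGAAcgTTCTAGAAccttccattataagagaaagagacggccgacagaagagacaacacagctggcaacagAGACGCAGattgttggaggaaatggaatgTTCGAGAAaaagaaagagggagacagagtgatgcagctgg
The windows of K01G5.10/tasp-1, rpl-15/K11H12.8 and rpl-20/Y17G9B.5, which held 3 of the 4 highest signals, each contained the word ATACACTC. The window of cct-8/Y55F3AR.2, the third in strength, contained no match to any of the 11 letter strings.

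A further pair of sequences shows short shared promoters. The small heat shock genes hsp-16.2 and hsp-16.41 are shown as a well-known divergent pair, with the same window around their summit, and lron-10/hpr-9 is shown with all 181 bases that separate the annotated genes.
hsp-16.2/hsp-16.41 (chrV:1805061-1805261, + strand): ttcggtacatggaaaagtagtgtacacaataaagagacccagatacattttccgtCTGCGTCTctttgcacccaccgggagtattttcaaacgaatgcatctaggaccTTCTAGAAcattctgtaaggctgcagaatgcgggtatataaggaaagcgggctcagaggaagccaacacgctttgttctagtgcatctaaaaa
lron-10/hpr-9 (chrIII:10621370-10621550, + strand): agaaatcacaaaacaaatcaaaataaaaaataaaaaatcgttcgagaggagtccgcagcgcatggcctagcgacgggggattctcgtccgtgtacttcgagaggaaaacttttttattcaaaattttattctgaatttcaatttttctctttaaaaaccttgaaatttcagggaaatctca
The hsp-16.2/hsp-16.41 window held 1 heat shock element core and 1 CTGCGTCT, while the stretch between lron-10 and hpr-9 held no match.

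Peak signals are the values deposited by the authors, whose scale is not given in the sources used here. Sequencing depth is unknown because the lists hold peaks and not reads, and the control library was not analysed here. The pooled signal has no replicate error, so values from the list of each replicate are given beside it. The reproducible list, thresholded by the authors on agreement between replicates (the irreproducible discovery rate), held 369 nuclear peaks. All 369 had a pooled signal of at least 92.7 and no other nuclear peak exceeded 92.6, so membership of that list and pooled signal are 1 measurement here and not 2. The replicate lists held 23774 and 19576 nuclear peaks, with median signals of 17.8 in replicate 1 and 24.7 in replicate 2.

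The highest of the divergent promoter peaks was between K01G5.10, a predicted haloacid dehalogenase-like hydrolase, and tasp-1, a relative of the protease taspase (chrIII:10759123-10759367). It had a pooled signal of 346, with 169.6 in replicate 1 (rank 2) and 169 in replicate 2 (rank 4), and its summit lay 51 bp upstream of tasp-1 and 734 bp upstream of K01G5.10. The peak between rpl-15, a protein of the large ribosomal subunit, and K11H12.8 had a pooled signal of 322, with 159 in replicate 1 (rank 5) and 153 in replicate 2 (rank 8). Both replicates therefore placed these 2 peaks among their 8 strongest nuclear peaks. The summit of rpl-15/K11H12.8 lay 576 bp from a tRNA, snoRNA or snRNA gene, just past the 500 bp limit of the rule.

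Between cct-8, a subunit of the cytosolic chaperonin that folds actin and tubulin, and Y55F3AR.2 the peak had a pooled signal of 263, with 108 in replicate 1 (rank 20) and 147 in replicate 2 (rank 11). Its summit also lay 141 bp from the noncoding RNA gene Y55F3AR.4. The peak shared by rpl-20, another large-subunit protein, and Y17G9B.5 reached 244 in the pooled list, 127 in replicate 1 and 116 in replicate 2. The genes Y22D7AL.10 and hsp-60, which encode the 10 kDa mitochondrial heat shock protein and the mitochondrial chaperonin Hsp60 that work together in folding, share 1 promoter of 813 bp, and its peak reached 208 in the pooled list, 112 in replicate 1 and 105 in replicate 2. That summit was 156 bp from Y22D7AL.10 and 657 bp from hsp-60.

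Among the next peaks, drr-2/set-16 (set-16 encodes a relative of MLL histone H3 lysine methyltransferases) reached 189 in the pooled list, 82.8 in replicate 1 and 104 in replicate 2. The pair F44E5.4/F44E5.5, whose products are both annotated as heat shock protein 70, reached 181 in the pooled list, 92.3 in replicate 1 and 90.1 in replicate 2. Here the 2 replicates differed by little, whereas the peak of rps-20/ekl-4 (a small-subunit ribosomal protein and a relative of the chromatin protein DMAP1) had 179 in the pooled list, 100.3 in replicate 1 and 60.9 in replicate 2. The peak of spe-48/Y51F10.11 reached 179 in the pooled list, 103 in replicate 1 and 80.8 in replicate 2, and its genes are only 180 bp apart.

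Signals of R107.5/cls-2, where cls-2 encodes a CLASP microtubule-binding protein, were 178 in the pooled list, 74.7 in replicate 1 and 102 in replicate 2. For rpl-12/lin-54, a ribosomal gene and a DNA-binding subunit of the DREAM repressor complex, they were 170.5 in the pooled list, 105 in replicate 1 and 77.4 in replicate 2. The pair rps-19/hsr-9, where hsr-9 is a relative of the DNA damage protein 53BP1, had 170.3 in the pooled list, 92.4 in replicate 1 and 90.0 in replicate 2. The remaining 3 of the 15 strongest were K12H4.6/K12H4.5 at 151, ecps-1/atx-2 at 151 (a relative of the proteasome factor Ecm29 and the worm ataxin-2) and F56G4.6/wbp-4 at 146 in the pooled list. All 15 peaks were in the reproducible list, and the lowest signal that any of them had in a replicate was 60.9.

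**Figure D1:**
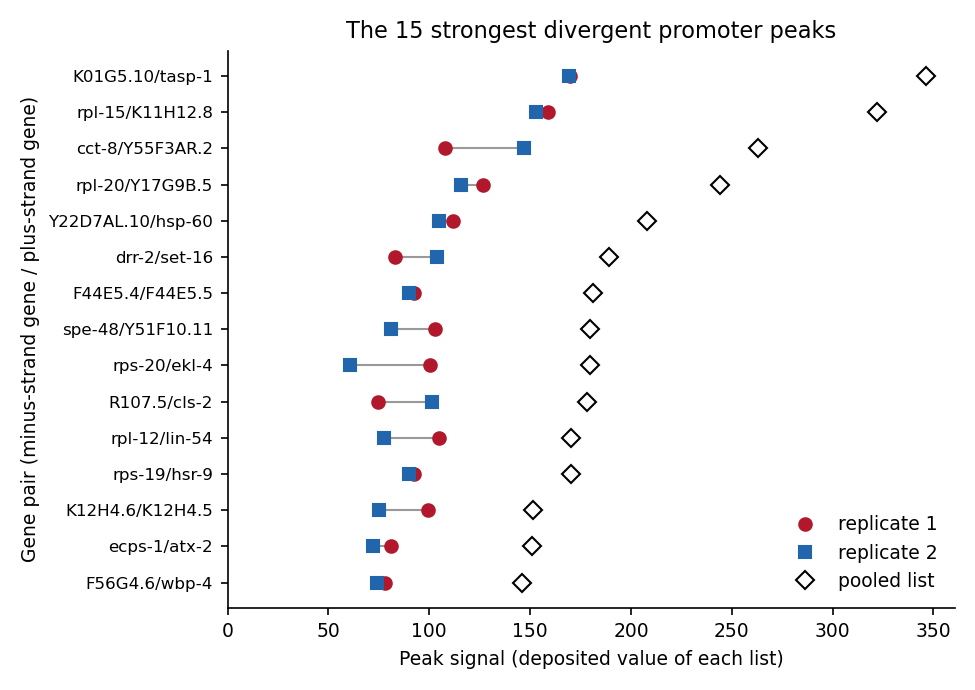
Signal of the 15 strongest divergent promoter peaks in replicate 1 (circles), replicate 2 (squares) and the pooled list (open diamonds), with the gene pairs down the page from the highest pooled signal. Replicate values run from 60.9 to 169.6, and the pooled value is the highest of the 3 for every pair.

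Peaks in divergent promoters were stronger than those in single-gene promoters, meaning summits from 1000 bp upstream to 500 bp downstream of a protein-coding 5′ end that lay in no divergent stretch. The median pooled signal was 43.2 (95% interval of the median 41.9 to 44.6, n = 678) in divergent promoters and 38.3 (38.0 to 38.7, n = 4811) in single-gene promoters. Single-gene promoter summits can lie inside a protein-coding gene, which divergent promoter summits cannot. Between adjacent genes that point the same way (tandem pairs), also at most 2000 bp apart, the median was nearer, at 40.4 (n = 1188). The quartiles of divergent promoter peaks were 35.6 and 59.8, and their range was 29.4 to 346. The direction was the same in each replicate alone, with medians of 20.6 in divergent and 18.1 in single-gene promoters of replicate 1, and 27.5 in divergent and 24.9 in single-gene promoters of replicate 2. The differences were 2.59 in replicate 1 and 2.56 in replicate 2, against 4.85 in the pooled list, whose signals run higher. These intervals and those below cover counting of peaks only, not reads or animals.

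Of the 678 divergent promoter peaks, 53 were in the reproducible list, or 7.82% (exact 95% interval 5.91 to 10.1), beside 2.17% of all 17005 nuclear peaks. The share was 1.91% (1.54 to 2.34) in single-gene promoters, with 92 of 4811, and the intervals did not overlap. Between tandem pairs it was 3.03%, with 36 of 1188. Of the 718 peaks near tRNA, snoRNA or snRNA genes, which the rule leaves out, 15.3% (12.8 to 18.2) were reproducible. Divergent promoters thus held 14.4% of the 369 reproducible nuclear peaks and 3.99% of all peaks. They also held 4 of the 20, 16 of the 100 and 114 of the 1000 strongest nuclear peaks. The last divergent peak inside the reproducible list was gpap-1/scpr-1 with a signal of 92.7, and the first outside it was C45G9.11/C45G9.2 with 92.6.

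**Figure D2:**
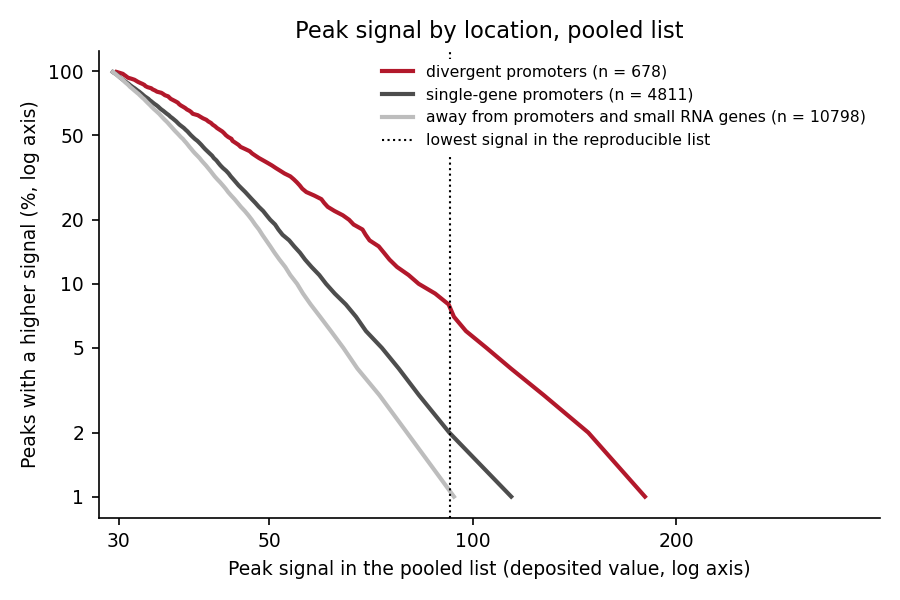
Share of peaks (log axis) whose pooled signal exceeded the value on the log x axis, for divergent promoters (n = 678), single-gene promoters (n = 4811) and peaks away from promoters and small RNA genes (n = 10798). The dotted line is the lowest signal of the reproducible list, where the 3 shares are 7.82%, 1.91% and 1.06%.

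Divergent promoter peaks were found again in the single replicates more often than single-gene promoter peaks and less often than peaks near small RNA genes. A counterpart, meaning a peak whose overlap covered 50% or more of the shorter peak, existed in both replicates for 360 of the 678 (53.1%, 49.3 to 56.9), beside 37.7% of all nuclear peaks, 39.7% of single-gene promoter peaks and 68.1% of the 718 peaks within 500 bp of a tRNA, snoRNA or snRNA gene. Replicate 1 had a counterpart for 519 and replicate 2 for 496, and 23 (3.39%) had one in neither, against 7.65% in single-gene promoters. The pooled list is made from the same reads as the replicate lists, so a counterpart is not independent evidence for a peak. Over the 360 peaks with both counterparts, the signals of the 2 replicates had a Spearman correlation of 0.459 and a Pearson correlation of 0.595 on the log2 scale. These points share a genome, a control and an annotation, and 22 divergent promoter peaks shared a counterpart with another in replicate 1 and 23 in replicate 2.

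All 53 reproducible divergent promoter peaks had counterparts in both replicates, and 26 of them ranked among the 369 strongest nuclear peaks of each replicate. In replicate 1, 42 ranked that high and in replicate 2, 33 did, while 4 did so in neither. Although the authors thresholded the list on agreement between replicates, its nuclear peaks were exactly those with a pooled signal of at least 92.7. The pooled signal comes from the same reads as the replicate lists, so counterparts in both are no independent support. The same counts over all 369 reproducible nuclear peaks are not given here, so these are no trait of divergent promoters. The signals of the 53 ran from 26.4 to 169.6 with a median of 60.7 in replicate 1, and from 20.8 to 169 with a median of 62.3 in replicate 2. Some peaks leaned on 1 replicate. The peak between hsp-110, a chaperone of the Hsp70 superfamily, and rpn-3, a proteasome lid subunit, had 63.3 in replicate 1 (rank 138) but 20.8 in replicate 2 (rank 15737), and 26.1 there (rank 8237) if any overlap counted. In the opposite direction, ntl-11/Y73F8A.27 had 26.4 in replicate 1 (rank 3155) and 76.5 in replicate 2 (rank 115).

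Occupied divergent pairs were more frequent than occupied pairs of other orientations. Of the 2494 divergent pairs, 595 (23.9%, 22.2 to 25.6) held at least 1 peak, against 14.4% (13.6 to 15.3) of 7296 tandem pairs, in which both genes point the same way, and 11.01% (9.72 to 12.4) of 2161 convergent pairs, in which the genes point at each other. A reproducible peak lay in 53 divergent pairs (2.13%, 1.60 to 2.77), in 0.493% of tandem pairs and in 0.278% of convergent pairs. Divergent stretches are longer, with a median of 672 bp against 531.5 bp for tandem and 405 bp for convergent pairs, so the density per length was compared as well. It was 0.346 summits per kb (0.320 to 0.373) between divergent pairs, 0.251 (0.237 to 0.266) between tandem pairs and 0.229 (0.203 to 0.259) between convergent pairs, and for reproducible summits 0.0270, 0.00761 and 0.00514 per kb. A divergent stretch holds 2 promoters and a tandem stretch 1, and the tandem pairs include neighbours within operons.

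In the share with any pooled-list peak, divergent and tandem pairs stood apart most between 251 and 1000 bp. Up to 250 bp, 11.4% of 369 divergent and 7.37% of 2172 tandem pairs held a peak. From 251 to 500 bp the shares were 25.5% of 538 divergent and 14.5% of 1357 tandem pairs, and 21 divergent pairs (3.90%, 2.43 to 5.91) and 12 tandem pairs (0.884%, 0.458 to 1.54) held a reproducible peak. Between 501 and 1000 bp, 26.0% of 811 divergent and 14.6% of 2019 tandem pairs were occupied. Reproducible peaks were there in 1.73% (0.947 to 2.88) of divergent and 0.693% (0.380 to 1.16) of tandem pairs. Beyond 1000 bp the intervals of the 2 orientations overlapped. Up to 1500 bp, 24.1% of divergent and 21.1% of tandem pairs were occupied, and up to 2000 bp, 29.9% and 26.0%. A reproducible peak lay in 1.71% of divergent and 0.278% of tandem pairs up to 1500 bp, and in 1.95% and 0.449% up to 2000 bp. For reproducible peaks the intervals of the 2 orientations overlapped in every spacing class except 251 to 500 bp. Among divergent promoter peaks, those in short stretches were the strongest. The median signal was 51.9 up to 250 bp, 52.3 from 251 to 500 bp, 43.3 to 1000 bp, 40.0 to 1500 bp and 39.0 to 2000 bp. Between tandem pairs the medians of the same classes were 42.9, 44.7, 39.6, 38.5 and 39.6, so higher signal at short spacing was not particular to divergent stretches. Between convergent pairs they were 48.8, 38.3, 42.3, 37.6 and 34.0.

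**Figure D3:**
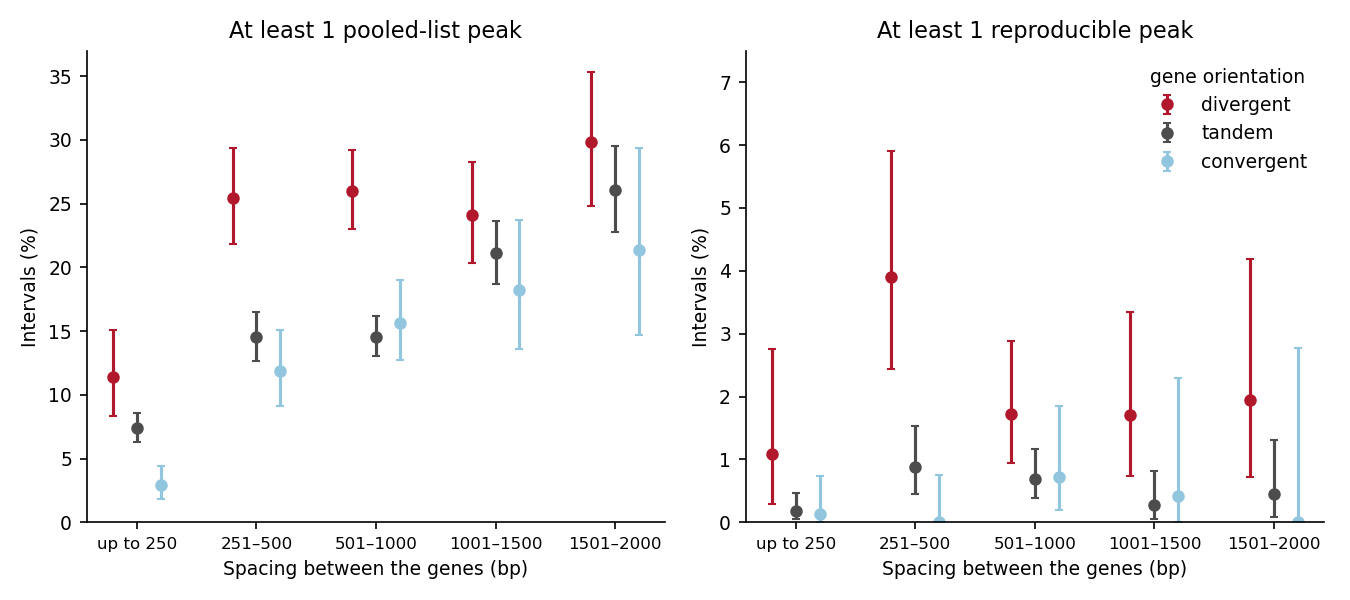
Share of gene intervals (y axis, %) with at least 1 pooled-list peak (left) or 1 reproducible peak (right) by the spacing of the genes (x axis, bp), for divergent, tandem and convergent pairs, with exact 95% intervals as bars. Divergent pairs of 251 to 500 bp reach 25.5% and 3.90%, above the 14.5% and 0.884% of tandem pairs of that spacing.

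Reproducible peaks had their summit in the central part of the shared stretch more often than other divergent promoter peaks, but not beyond the intervals where the stretch was long enough to resolve a position. Of the 53 reproducible peaks, 31 (58.5%, 44.1 to 71.9) had their summit in the central part of the spacing, from 33.3% to 66.7% of the way between the genes, against 30.9% (27.3 to 34.7) of the other 625 divergent promoter peaks, where an even spread gives 33.3%. A peak of the usual width of 430 bp cannot resolve a position in a short stretch, and 17 of the 53 reproducible peaks and 130 of the other 625 were wider than the spacing. Among peaks with a spacing over 500 bp the shares were 42.9% (12 of 28, 24.5 to 62.8) of reproducible and 28.8% (24.7 to 33.1) of other peaks, with overlapping intervals. The interval of the reproducible peaks there includes an even spread, and that of the other peaks lies just below it. Over all divergent promoter peaks the central share was 45.9% for a spacing of 251 to 500 bp, 35.3% to 1000 bp, 25% to 1500 bp and 23.7% to 2000 bp. The median distance from a summit to the nearer 5′ end was 170 bp over all 678, with quartiles of 91 and 292.5 bp. The minus-strand gene was nearer in 333 and the plus-strand gene in 345, close to an even split.

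**Figure D4:**
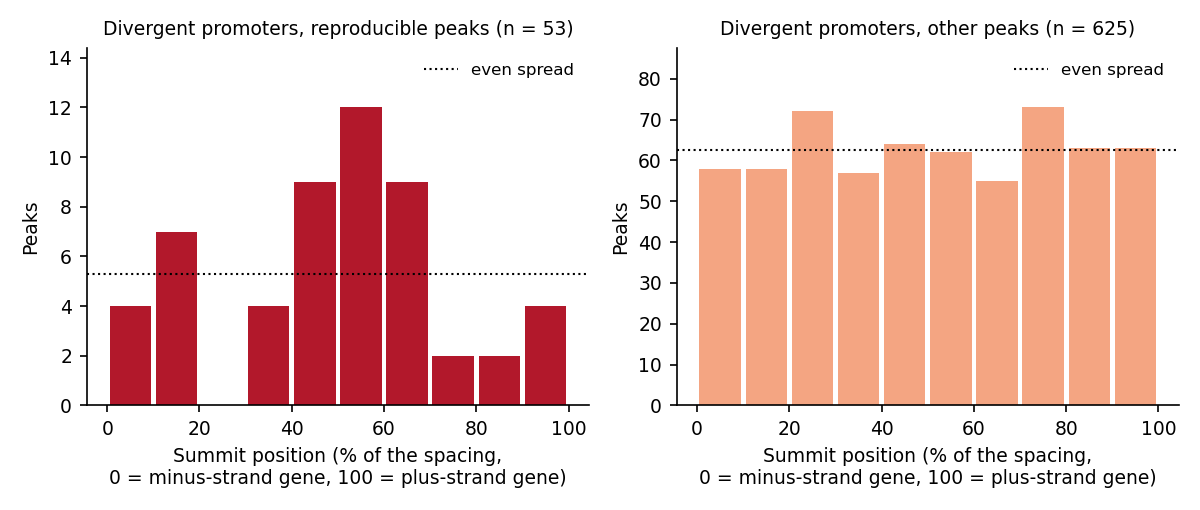
Number of divergent promoter peaks (y axis) by the position of the summit between the genes (x axis, % of the spacing from the minus-strand gene to the plus-strand gene), for the 53 reproducible peaks (left) and the other 625 (right), with a dotted line for an even spread. The tallest bar of the left panel, just past the middle, holds 12 summits against 4 in either outermost bar, and both panels pool all spacings up to 2000 bp.

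Most occupied pairs had a single peak, with 513 of 595, while 81 had 2 and cnx-1/panl-3 had 3. In 41 of the 81 the summits were at most 250 bp apart, and the smallest distance was 199 bp, so such peaks overlap in part. No pair held more than 1 reproducible peak. At ears-2/uncp-18, the closest pair of the reproducible set at 92 bp, the summit lay 1 bp from ears-2, which encodes a mitochondrial glutamyl-tRNA synthetase, and the signal was 105 in the pooled list, 39.5 in replicate 1 and 63.3 in replicate 2. The pair lron-10/hpr-9, whose 181 bp are printed above, had a summit 97 bp from lron-10 and 85 bp from hpr-9, a relative of the checkpoint protein RAD9. Its signal was 137 in the pooled list, 60.8 in replicate 1 and 68.8 in replicate 2.

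Cytosolic ribosomal proteins, vesicle traffic and the cytosolic chaperonin were the lists with the highest share of genes with a peak in their divergent promoter, among 22 gene lists. Both genes of a pair share the peak, so a count by gene says nothing about which of the 2 it belongs to. The intervals treat genes as independent and make no allowance for the number of lists. Over all 4988 genes in divergent pairs, 1190 (23.9%) had a peak and 106 had a reproducible one. Of 48 ribosomal protein genes in divergent pairs, 31 (64.6%, 49.5 to 77.8) had a peak and 7 a reproducible one, with a median signal of 55.8 against 44.9 for all genes with a peak. Besides rpl-15, rpl-20, rps-20, rpl-12 and rps-19, these were rps-15 at 105.7 in the pooled list, 49.99 in replicate 1 and 52.1 in replicate 2, and rps-23 at 96.7 in the pooled list, 62.0 in replicate 1 and 39.0 in replicate 2. The summits of the rpl-15 and rps-23 peaks lay 576 and 634 bp from a small RNA gene, just past the 500 bp limit. In the 31 peaks whose pair had exactly 1 ribosomal gene, the summit was nearer to that gene in 13.

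Vesicle traffic genes followed with 24 of 38 (63.2%, 46.0 to 78.2), of which 5 had a reproducible peak. The highest was sec-61.B, the beta subunit of the translocon through which proteins enter the endoplasmic reticulum, whose promoter shared with trap-3 had 136 in the pooled list, 77.5 in replicate 1 and 49.6 in replicate 2. For copb-1, a coat protein of Golgi vesicles, the signal was 123 in the pooled list, 62.9 in replicate 1 and 55.3 in replicate 2, but the summit lay 1681 bp from copb-1 and 156 bp from its partner Y25C1A.8. After them came vps-51, a subunit of a tethering complex of the recycling pathway, which shares its promoter with lin-35, the worm retinoblastoma protein. That peak had 113 in the pooled list, 51.5 in replicate 1 and 56.1 in replicate 2.

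All 8 genes of the cytosolic chaperonin are in divergent pairs, and 5 of them had a peak (62.5%, 24.5 to 91.5). With only 8 genes this interval is wide, and it starts just above the 23.9% of all genes. After cct-8 came cct-1 at 74.3 in the pooled list, 39.7 in replicate 1 and 32.8 in replicate 2, and cct-7 at 54.5 in the pooled list, 21.6 in replicate 1 and 29.9 in replicate 2. Only the cct-8 peak was reproducible, and in all 5 the summit was nearer to the other gene of the pair. Of 23 heat shock and DnaJ genes, 8 (34.8%, 16.38 to 57.3) had a peak. This list was drawn from gene symbols and leaves out F44E5.4, F44E5.5 and Y22D7AL.10, whose products are annotated as heat shock proteins and whose peaks are described above. The hsp-3 peak, upstream of an endoplasmic reticulum Hsp70, had 94.0 in the pooled list, 39.0 in replicate 1 and 50.6 in replicate 2, and was the only reproducible divergent promoter peak on the X chromosome. At hsp-16.2/hsp-16.41, small heat shock genes that are strongly induced by heat, the signal was 52.5 in the pooled list, 31.1 in replicate 1 and 32.3 in replicate 2, and the peak was not in the reproducible list.

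Lists of the transcription and RNA machinery lay above the share of all genes, with intervals that reached close to it or across it. Transcription machinery genes had a peak in 10 of 21 (47.6%, 25.7 to 70.2) and splicing genes in 10 of 22 (45.5%, 24.4 to 67.8). The splicing factor gene prp-19 had the highest signal of these, with 103 in the pooled list, 60.7 in replicate 1 and 43.7 in replicate 2. Mitochondrial ribosomal protein genes had a peak in 11 of 26 (42.3%, 23.3 to 63.1) with none reproducible, and the strongest was mrps-15 at 87.8 in the pooled list. Translation factors had 8 of 19, the proteasome 8 of 21, mitochondrial respiration 7 of 19, cell cycle and DNA replication 10 of 28, aminoacyl-tRNA synthetases 4 of 13 and DNA repair 3 of 12. The elongation factor gene eef-2 lay just below the reproducible list, with 92.3 in the pooled list, 48.7 in replicate 1 and 37.3 in replicate 2.

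Chemoreceptor, histone and collagen genes had peaks less often than all genes. Chemoreceptor genes had a peak in 16 of 282 (5.67%, 3.28 to 9.05), although sri-5 and srt-11 shared reproducible peaks with rsr-1, a splicing coactivator gene, and with W01D2.3. Histone genes had one in 5 of 64 (7.81%, 2.59 to 17.3), collagen genes of the cuticle in 3 of 35 (8.57%, 1.80 to 23.1), sperm genes in 4 of 34 (11.8%, 3.30 to 27.5) and nuclear hormone receptor genes in 7 of 44 (15.9%, 6.64 to 30.1). The intervals of the chemoreceptor, histone and collagen lists lay below the 23.9% of all genes, while those of the sperm and nuclear hormone receptor lists included it. The collagen interval ended only just below it. Some pairs have both genes in 1 list and count 2 times there, such as his-31/his-32, his-38/his-40 and srh-236/srh-113. The intervals of such lists may therefore be too narrow. Many histone genes occur as near-identical copies, for which the authors' handling of reads with several matches is not given in the sources used here. Homeobox genes with 1 of 10 (0.253 to 44.5) and neuropeptide genes with 4 of 14 (8.39 to 58.1) were too few to place, with intervals that included the 23.9%.

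**Figure D5:**
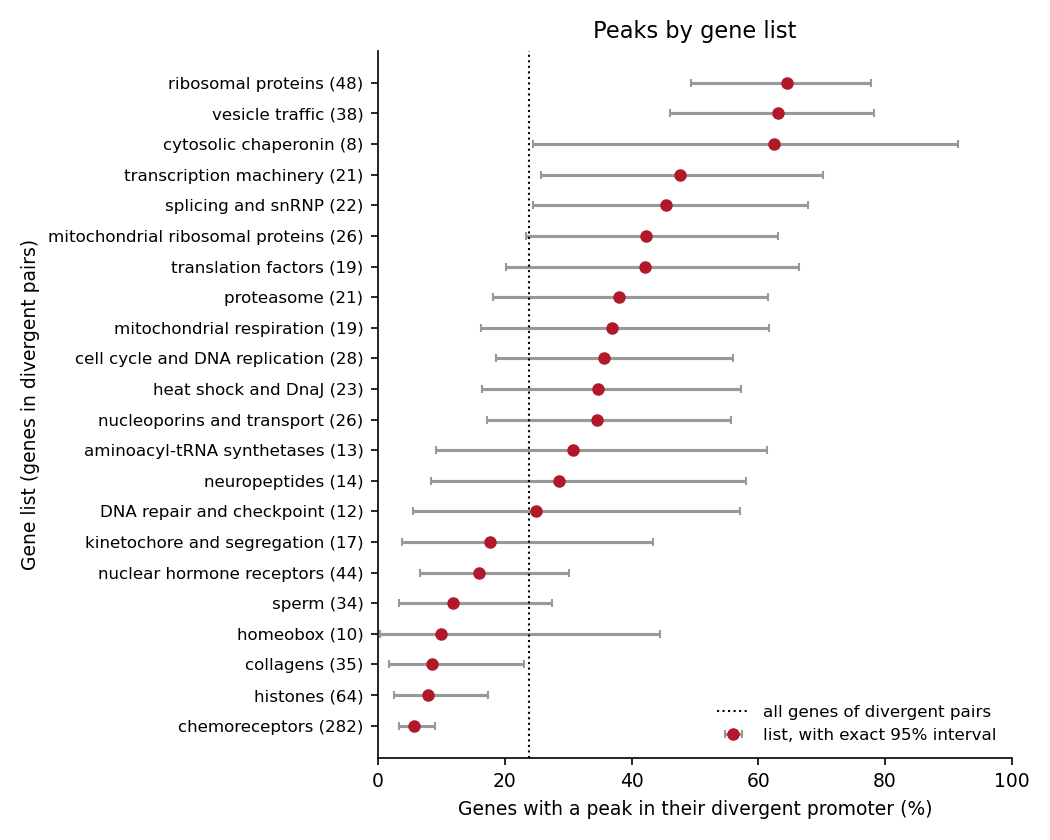
Share of genes in divergent pairs that had a peak in the shared promoter (x axis, %), for 22 gene lists ordered by that share, with the number of genes in brackets, exact 95% intervals as bars and a dotted line at the 23.9% of all genes. Ribosomal proteins (64.6%), vesicle traffic (63.2%) and the cytosolic chaperonin (62.5%) stand highest, and chemoreceptors (5.67%) lowest. The chaperonin interval, from 8 genes, runs from 24.5% to 91.5%.

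For the nucleoporin and kinetochore lists, which cover structures where MEL-28 itself works, the intervals included the 23.9% of all genes. Nucleoporin and transport genes had a peak in 9 of 26 (34.6%, 17.2 to 55.7), led by npp-8, a relative of the scaffold nucleoporin Nup155, whose promoter shared with ced-2 had 101 in the pooled list, 42.2 in replicate 1 and 57.4 in replicate 2. Kinetochore and segregation genes had one in 3 of 17 (17.6%, 3.80 to 43.4), led by zwl-1, the worm Zwilch and a checkpoint protein of the kinetochore. The zwl-1 peak had 62.5 in the pooled list and 31.2 in replicate 1, with no counterpart in replicate 2. Its summit lay 622 bp from zwl-1 and 116 bp from its partner dot-1.1. The smc-3 peak had no counterpart in replicate 2 either. In all 3 peaks of the kinetochore list the summit was nearer to the other gene of the pair. That list was drawn from gene symbols and does not hold all kinetochore genes: kbp-3, a kinetochore-binding protein, and czw-1, the relative of ZW10, are outside it and had peaks of 66.3 and 65.4 in the pooled list. The gene mel-28 itself is in a divergent pair with enu-3.2, 845 bp apart, and no peak lay there. The nearest summit was 18669 bp from its 5′ end. The gene unc-119, whose mutant allele the strain carries, is in no divergent pair of this spacing.

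Reproducible divergent promoter peaks were rich in G and C. In the windows around the summit GC averaged 44.9% ± 7.93 (SD over 53 windows), against 38.2% ± 7.11 over all 678 divergent promoter peaks and 38.9% over all nuclear peaks. All 369 reproducible nuclear peaks had 44.6%, so this level is shared with reproducible peaks elsewhere. Windows at the midpoints of the 1873 divergent pairs with no summit had 33.5%. With the 678 peaks in 3 equal classes of GC, 37 of 226 in the highest class were reproducible (16.37%), 13 in the middle class and 3 in the lowest, with median signals of 50.9, 44.1 and 39.4. The part of GC-dependent amplification or mapping in this was not tested.

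Motif counts differed in the same windows. The Sp-family word CCGCCC occurred in 14 of 53 reproducible windows (26.4%, 15.3 to 40.3), in 8.26% of all 678, in 5.28% of all nuclear peaks and in 4.81% of midpoints with no peak. Among all 369 reproducible nuclear peaks, of which the 53 are a part, it occurred in 13.8% (10.5 to 17.8). CTGCGTCT occurred in 8 of 53 (15.1%, 6.75 to 27.6), in 7.08% of all 678 (5.27 to 9.28), in 3.64% of single-gene promoter peaks and in 2.97% of all nuclear peaks. For this word the share of all reproducible nuclear peaks was 7.59%. GAGAGA occurred in 34.0% of reproducible and 22.0% of all divergent windows, against 30.1% of all reproducible and 16.3% of all nuclear peaks, so the reproducible peaks of divergent promoters were close to reproducible peaks in general. The heat shock element core TTCNNGAA occurred in 22.6%, 12.7%, 12.7% and 12.1% of these sets. TATAAA was found in 2 of 53 reproducible windows (3.77%, 0.460 to 13.0) and in 19.9% of all 678, against 13.8% of all reproducible and 18.5% of all nuclear peaks. The GATA site TGATAA occurred in 7.55% of reproducible and 19.0% of all divergent windows, against 9.49% of all reproducible and 16.9% of all nuclear peaks. In the same order, the E-box CACGTG occurred in 5.66%, 5.01%, 6.5% and 4.88% and the E2F-like site in 5.66%, 2.65%, 2.17% and 1.16%. GTAAACA was in 0 of 53 (up to 6.72%), in 4.13% of all 678, in 2.36% of all nuclear peaks and in 4.11% of midpoints with no peak. The part of base composition in these counts was not tested, and a match is not evidence of binding.

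Chromosomes differed in how many divergent pairs held a reproducible peak. They numbered 15 of 419 on chromosome I, 4 of 452 on II, 16 of 369 on III, 13 of 432 on IV, 4 of 646 on V and 1 of 176 on X. Over all nuclear peaks of a chromosome the reproducible share was 2.67% on I, 2.13% on II and 2.87% on III. It was 1.91% on IV, 1.53% on V and 2.08% on X. III and I were highest in both counts, while V was lowest over all nuclear peaks and X among divergent pairs. Of divergent promoter peaks, 11.51% were reproducible on III, 11.02% on IV, 10.71% on I, 3.81% on II, 2.96% on V and 2.44% on X. IV thus ranked above I by this share, but over all nuclear peaks it ranked above V only. The share of divergent pairs with any peak was 29.8% on I, 20.6% on II and 33.1% on III. That share was 22.5% on IV, 19.2% on V and 19.3% on X. Noncoding RNA genes lay within 500 bp of the summit in 12.5% of divergent promoter peaks, against 8.77% in single-gene promoters. Soft-masked sequence, which the genome file marks as repeats or low complexity, made up 34.4% of the divergent windows on average, against 28.4% over all nuclear peaks. Masking covered more than 50% of the length in 23.5% of divergent windows, against 16.7% over all nuclear peaks. At the midpoints of divergent pairs with no summit both values were higher, at 39.9% and 32.1%. Exact repeats were fewer. Of the 678, 36 held a 36-base word that occurs elsewhere in the genome, and 4 consisted of such words over more than 50% of their positions, none of them reproducible.

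Values on either side of the rule's limits were close for spacing. Pairs spaced 1800 to 2000 bp held a peak in 33 of 118 (28.0%) with a median signal of 39.5, and those spaced 2000 to 2200 bp, outside the rule, in 25 of 91 (27.5%) with 39.2. In divergent stretches, 9 summits lay 500 to 750 bp from a small RNA gene with a median signal of 55.3. Of these 9, 2 were reproducible, rpl-15/K11H12.8 at 576 bp and rps-23/dpm-3 at 634 bp. The 4 summits at 250 to 500 bp, outside the rule, had a median of 45.5, and 1 was reproducible. All 34 summits left out because a small RNA gene was near had a median signal of 72.2, and 7 of them were reproducible.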

How the data were processed

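MEL-28 ChIP-seq was deposited as narrowPeak lists on ce11, 1 for each of the 2 replicates, 1 called on both together and 1 thresholded for reproducibility. Per the deposited file manifests, each list was made from the alignments and a shared control. Which aligner, peak caller and threshold made them is not given in the sources used here. Read depth is unknown and the ce10 lists were not used. Peak signal and −log10 q-value are the authors' deposited values. The largest −log10 q-value was 2.05, shared by 74 divergent promoter peaks, so signal alone ranked peaks.

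Genes came from Ensembl release 115 and sequence and gene products from RefSeq, both on WBcel235. Pairs were adjacent when no protein-coding gene covered the bases between them. Shares have exact (Clopper-Pearson) 95% intervals, densities exact Poisson intervals and medians order-statistic intervals, and no test was run, since the study has 1 group. The replicates are separate biological replicates per the labels. Tools were Python 3.11.15, numpy 2.4.6, pandas 2.3.3, scipy 1.17.1 and matplotlib 3.10.9. Pair finding, peak assignment and overlap were tested on simulated data, with 20 draws of 400 peaks and 0 wrong assignments.

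Members, gene lists, motifs and alternatives were chosen with earlier results of these data known. Gene lists were patterns of gene symbols, and the chemoreceptor pattern was narrowed after it had matched genes of other families. Named genes are both genes of the 15 strongest peaks, up to 3 genes per list with the highest signals, mel-28 and unc-119, and any others were chosen after their values were seen. The 22 lists are those in the plot of gene lists. Alternatives were another spacing limit, other rules for crossing genes, small RNA genes and identical intervals, the stronger part of the list, other overlap and promoter limits, and each replicate's list alone.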

Additional observations from a re-analysis of the deposited data

How the results depend on the processing

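Of 45 values recomputed under alternatives other than a left-out replicate, 33 stayed within the interval of the reported value, or within 1.5 times for the count of peaks. Only the difference in median signal could change sign, since counts, shares and ratios cannot be negative. It stayed positive in every alternative that recomputed it. With a spacing of at most 1000 bp there were 420 peaks, 58.3% had counterparts in both replicates, the median signal exceeded that of single-gene promoters by 7.76, the density was 1.61 times that of tandem pairs (1.38 times as reported) and 38.3% of summits lay in the central part of the spacing. With only the peaks above the median pooled signal there were 449 peaks, 16.9% of pairs held a peak, 69.7% had counterparts in both replicates and the density ratio was 1.52. The reproducible share was 11.8%. By construction the count and the share of pairs could only fall, and the reproducible share could only rise, since every reproducible peak lies above that median. Counting any overlap gave counterparts in both replicates for 60.9% and requiring 80% gave 38.5%, so that share depends on the overlap rule. With each replicate's list alone, the number of peaks ran from 674 to 825, the share of pairs with a peak from 23.3% to 29.0%, the share matching a reproducible peak from 6.79% to 8.46%, the share with a counterpart in the other replicate from 43.3% to 53.7%, the median difference in signal from 2.56 to 2.59, the density ratio from 1.31 to 1.37 and the central share from 33.8% to 35.2%. The cause of these movements was not tested. No paired analysis was possible because the study has 1 group.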

Other observations

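Genes of the DREAM complex, a repressor of cell cycle genes whose worm subunits include the retinoblastoma protein, were looked up after lin-54, lin-53 and lin-35 had been seen among the strong peaks, so their count is a description only. Of 8 subunit genes, 5 are in divergent pairs and each of these had a peak, 3 of them reproducible, beside 23.9% with a peak and 2.13% with a reproducible one among all genes of divergent pairs. The highest was the rpl-12/lin-54 peak described above, whose summit lay 76 bp from rpl-12 and 317 bp from lin-54. At lin-53/nra-2, where lin-53 encodes a histone-binding protein, the signal was 115 in the pooled list, 76.7 in replicate 1 and 53.1 in replicate 2, with the summit 203 bp from lin-53. At lin-9/unc-32 it was 69.0 in the pooled list, 26.2 in replicate 1 and 39.8 in replicate 2, and at efl-1, the worm E2F, it was 51.2 in the pooled list, 30.5 in replicate 1 and 25.5 in replicate 2. The genes dpl-1, lin-37 and lin-52 are in no divergent pair of this spacing.

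Both words noticed in the printed windows were counted in every window of the same length, on both strands. ATACACTC occurred in 3 of 53 reproducible divergent promoter windows (5.66%, 1.18 to 15.7), in 8 of all 678 (1.18%), in 4 of the other 316 reproducible nuclear windows (1.27%) and in 0.576% of all 17005 nuclear windows. GCGCACTT occurred in 29 of the 678 (4.28%, 2.88 to 6.09), against 58 of 4811 single-gene promoter windows (1.21%, 0.917 to 1.56), 0.835% of all nuclear windows and 1.12% of midpoints of divergent pairs with no peak. Of the 53 reproducible windows, 5 held it, those of rpl-20/Y17G9B.5, rpl-12/lin-54, ecps-1/atx-2, wve-1/R06C1.4 and ntl-11/Y73F8A.27. The words were picked from windows that are part of the 53 and of the 678. Their counts in either set are therefore no independent support.

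Peaks narrower than the usual 430 bp were concentrated among the strong ones. Of the 53 reproducible divergent promoter peaks, 8 (15.1%) were narrower, against 0.300% of all nuclear peaks, and the reason was not tested.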
